A study of Mus musculus with 17 samples.

Results

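Mouse embryonic fibroblasts were set against pluripotent cells of the same strain in 6 RNA-seq libraries, chosen from the 17 of the series by their labels. The sample codes of these 6 carry the prefix JI, their strain is labelled c57/b6 and their genotype WT. The 2 MEF libraries (WT MEF 1 and 2) came from fibroblasts at passage 2, grown per the labels in serum-containing medium. The 4 pluripotent libraries were 2 of embryonic stem cells (WT ESC 3 and 4) and 2 of induced pluripotent stem cells (WT iPSC 2 and 3), all at passage 10 to 15. The series' shared protocol, which does not say which lines each step applies to, describes feeder layers, 2i + LIF medium, and reprogramming by retroviruses for Oct4, Sox2 and Klf4, with c-Myc added in some cases. Transgene RNA and the RNA of the cell's own gene cannot be told apart in these gene totals, and neither can fibroblast RNA of a cultured cell and that of a feeder. The labels do not say how many lines the ESC and iPSC libraries represent. They call replicates biological but do not say that the cultures were separate, so the p-values reflect the spread among these libraries only, which may be technical. The comparison asks which gene programs separate these fibroblasts from these pluripotent cells. Passage went with cell kind in all 6 libraries, and medium may have done so too, so their parts cannot be told apart.

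Fibroblasts of the embryo are connective-tissue cells that secrete and remodel extracellular matrix, pull on it through actin stress fibres anchored at integrins, and answer serum with immediate early genes. Pluripotent cells can form every tissue of the embryo. A network of transcription factors around Oct4 (Pou5f1), Sox2 and Nanog holds that state, the cells adhere to each other as an epithelium, and they divide quickly with little growth control by the RB pathway. In 2i + LIF medium, inhibitors of MEK and GSK3 and the cytokine LIF keep mouse cells in the naive state. Reprogramming has to shut down the first program and open the second.

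Markers of fibroblasts and of pluripotent cells lay as the labels of cell kind say. They cannot check the labels of strain, genotype or passage, or tell ESC from iPSC. The lists were also chosen with earlier results of these data known. All 12 fibroblast markers were tested and 12 rose in MEF, with a median log2 change of 5.08. The markers took 0.924% and 0.904% of the summed FPKM (fragments scaled to depth and transcript length) in MEF 1 and 2 and 0.00964% to 0.0131% in the 4 pluripotent libraries. Of the general pluripotency list, 25 of 26 members fell in MEF, and the list took 0.00745% and 0.00735% of the summed FPKM in MEF 1 and 2 and 1.19% to 1.32% in the pluripotent libraries. Dppa5a alone made 17020 of the list's 20889 FPKM in ESC 3 and 9577 of 12906 in ESC 4. The summed FPKM was 497753 and 504255 in MEF 1 and 2 and 1.08e+06 to 1.61e+06 in pluripotent libraries. Shares given here and below therefore widen the gap, relative to FPKM, for lists higher in MEF and narrow it for lists lower in MEF. Here and below a gene "rose" or "fell" in MEF when edgeR's quasi-likelihood test called it at an adjusted p of 0.05 and the change was at least 2-fold. A log2 change is MEF minus the mean of ESC and iPSC, with its standard error after ±, and FPKM values are levels, given in the order of the replicate numbers. Among the 139 genes named here that rose or fell, the largest adjusted p was 0.014 (edgeR).

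The whole transcriptome was split almost evenly. Of 14828 genes tested, 12745 (86.0%) were called, 6417 higher and 6328 lower in MEF. At least 2-fold, 4942 genes rose (33.3%) and 4879 fell (32.9%). At least 8-fold, the counts were 1709 and 1874, and at least 32-fold they were 545 and 874. The far end therefore held more genes that were low in fibroblasts. Every MEF value lay above every pluripotent value in 43.5% of genes and below in 43.6%. Lack of overlap in a gene named below is to be read against these shares. With the estimated counts rounded to whole fragments, 458 called genes were at 0 in both MEF libraries and 53 in all 4 pluripotent libraries. These counts cannot be set against each other, since 0 in 2 libraries is met more easily than 0 in 4. The 4 pluripotent libraries also held more fragments in all. How far the counts at 32-fold rest on genes at 0 was not tested. Of the genes that rose or fell, 9341 (95.1%) did so against ESC alone and against iPSC alone as well. Calls came to 12247 genes against ESC (82.6%; 32.4% rose and 32.7% fell) and 12501 against iPSC (84.3%; 33.7% and 33.0%), 2 contrasts that share the MEF libraries. Between iPSC and ESC, the same fit called 3 genes (0.0202% of those tested; 0.0135% higher and 0.00674% lower in iPSC by at least 2-fold), against 868 at an unadjusted p of 0.05 and 14 called by DESeq2. That number rested on single libraries: it was 3461 without ESC 3, 342 without ESC 4 and 5 without iPSC 2. With 2 libraries a group, a small count does not show that ESC and iPSC are alike. The direction of the calls depended on the scaling. With library size alone in place of TMM factors, the median of all genes moved by 0.40 log2, and 5854 genes rose and 4028 fell.

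**Figure D1:**
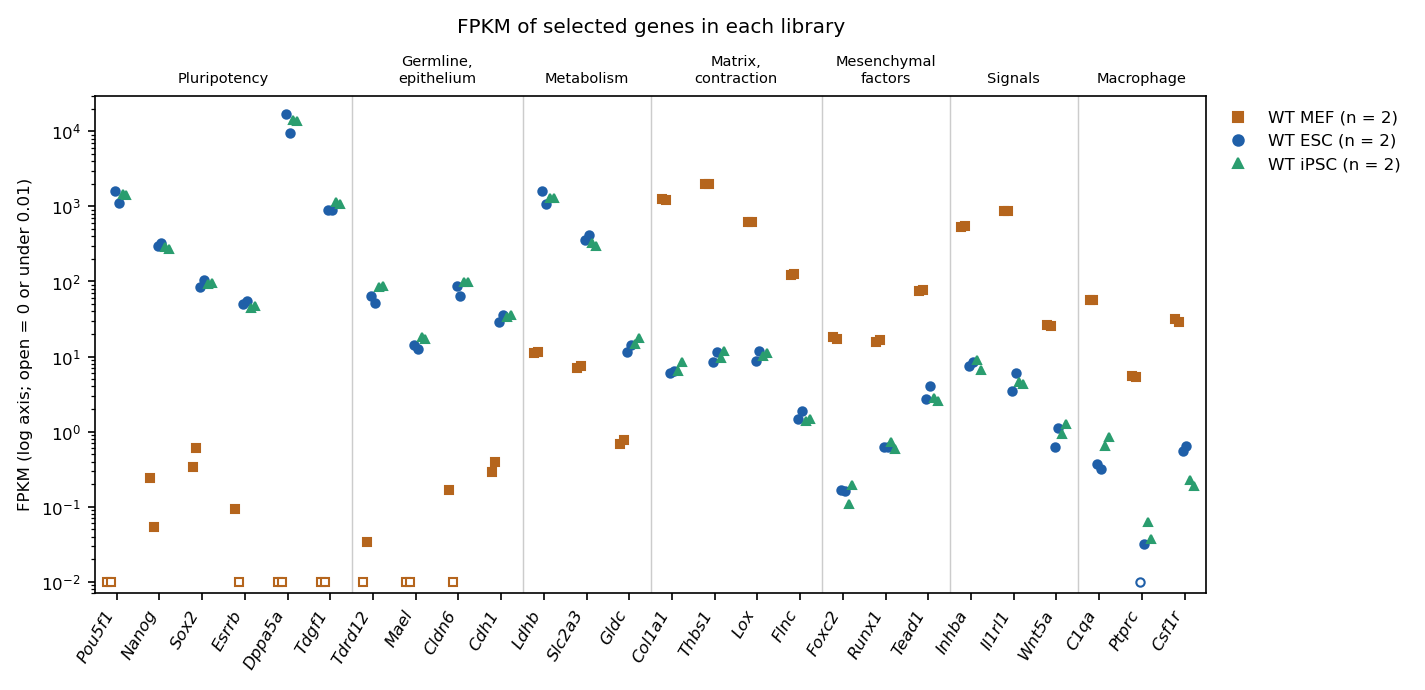
FPKM of 26 genes in the 6 libraries (log axis; squares, MEF; circles, ESC; triangles, iPSC; open symbols, 0 or under 0.01). The genes were selected from those named in the text. In every gene plotted, both MEF values stand apart from all 4 pluripotent values, as they do in most genes tested (above in 43.5%, below in 43.6%).

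Depth ran from 7.80 to 30.1 M assigned fragments a library, and 12080 to 12279 genes had an FPKM of at least 1. MEF 1 and 2 (8.73 and 19.8 M) differed little beyond sampling (chi-square per gene of 1.58), iPSC 2 and 3 more (5.03), and ESC 3 and 4 most (29.9). The change between MEF and pluripotent cells also moved with transcript length. With genes cut into 10 bins by length, the median log2 change was -2.37 in the bin of shortest transcripts, with 76.3% of genes falling, and in the longest bin it was 1.76, with 66.1% rising. Spearman's rho across 14630 genes, which are not independent replicates, was 0.46. The pair ESC 3 and ESC 4, of 1 group, showed a trend of the same kind, from 0.66 in the shortest bin to -0.44 in the longest, while the MEF and iPSC pairs stayed between -0.03 and 0.09. A second fit removed the trend within each library. In it 85.8% of genes were called, 30.7% rose and 27.6% fell, and 3598 genes rose and 3185 fell in both fits. Of those that rose in the first fit, 208 were called lower in the second, and 366 that fell were called higher. The part of length in each result was not tested, so the gene groups below carry the counts of both fits, to be read against these shares of all genes.

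**Figure D2:**
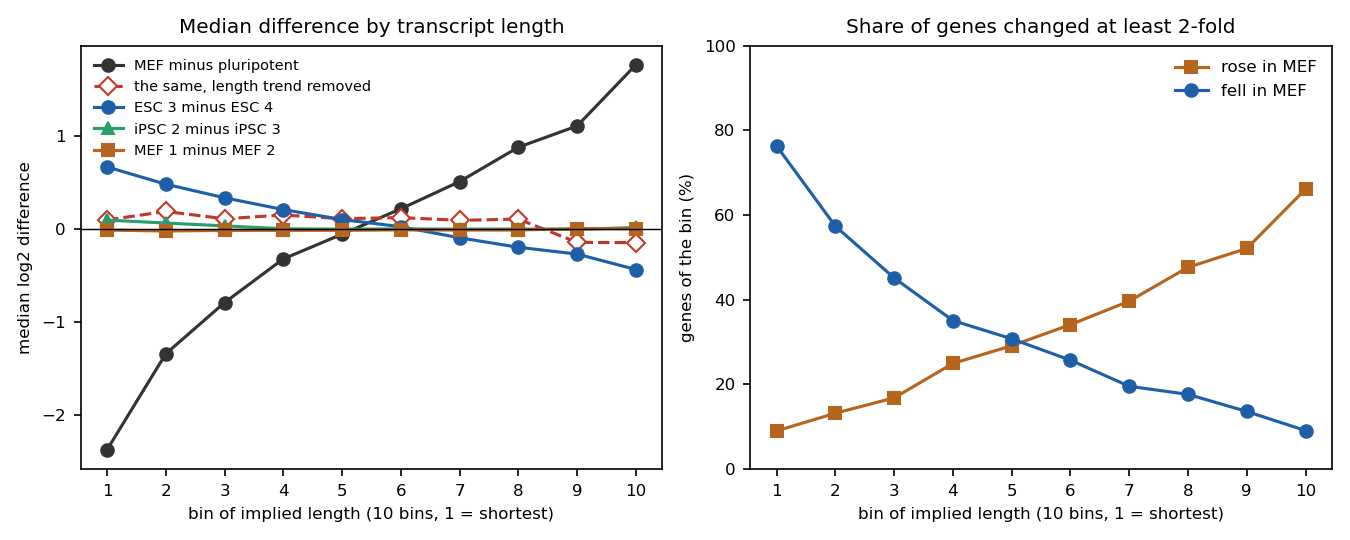
Left, median log2 difference by bin of transcript length (10 bins, 1 the shortest) for MEF minus pluripotent cells, for the same after removal of the trend, and for the 3 pairs of replicates. Right, share of genes in each bin that rose or fell in MEF; the share that fell drops from 76.3% to 9.09%.

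The pluripotency network was close to silent in MEF. Pou5f1 (Oct4), the factor at its centre, had 0 and 0 FPKM in MEF, 1585 and 1111 in ESC and 1448 and 1435 in iPSC. MEF had no fragment of it, which makes the level at least 15214-fold higher in pluripotent cells against a floor of 3 fragments over the group. Nanog, the homeodomain factor that stabilises self-renewal, had 0.242 and 0.0539 FPKM in MEF, 295 and 323 in ESC and 286 and 270.1 in iPSC. The MEF values come from 3 fragments in all and the pluripotent values do not come near them, a ratio of 5100 (95% counting interval 1745 to 24732) of normalised counts. Sox2, the DNA-binding partner of Oct4, had 0.338 and 0.601 FPKM in MEF, 84.8 and 104 in ESC and 91.4 and 95.9 in iPSC and a log2 change of -7.51 ± 0.25 (adjusted p = 1.5e-10, edgeR). Esrrb, a nuclear receptor of the naive network, had 0.0938 and 0 FPKM in MEF, 50.3 and 54.7 in ESC and 44.4 and 47.4 in iPSC, again with no overlap. The most abundant members were small genes: Dppa5a, an RNA-binding protein of pluripotent cells, had 0 and 0 FPKM in MEF, 17020 and 9577 in ESC and 14173 and 13755 in iPSC (at least 60881-fold higher in pluripotent cells), and Tdgf1 (Cripto), the co-receptor for Nodal, had 0 and 0 FPKM in MEF, 899 and 897 in ESC and 1155 and 1069 in iPSC (at least 17793-fold). In MEF neither had a fragment. Dppa5a has near-identical copies in the genome, so its share of their reads is uncertain. The list's median log2 change was -9.16, or -8.96 with the 9 genes at 0 in MEF set to their bound, against 0.00 over all genes. With the length trend removed, 26 of 26 fell (median -8.29). The member that changed under 2-fold was Rif1, which protects telomeres and replication forks, with 10.1 and 11.5 FPKM in MEF, 27.1 and 38.4 in ESC and 35.3 and 34.3 in iPSC and a log2 change of -0.70 ± 0.22 from fragments, smaller than its FPKM ratio.

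Promoter sequence is shown for 4 of the genes on which the contrast turns: Nanog and Pou5f1, nearly or wholly absent from MEF, and Col3a1 and Zyx, matrix and focal-adhesion genes that rose. Each line gives the 150 bases before the first start site listed by RefSeq (GRCm38.p6). Capitals mark every match, on either strand, to TATAAA (the TATA box), TGANTCA (the AP-1 site), ATGCAAA (part of the octamer bound by Oct factors) or CCAAT. Such windows hold TATAAA in 7.57% of 32851 RefSeq promoters, TGANTCA in 4.24%, ATGCAAA in 2.36% and CCAAT in 24.5%.
Nanog: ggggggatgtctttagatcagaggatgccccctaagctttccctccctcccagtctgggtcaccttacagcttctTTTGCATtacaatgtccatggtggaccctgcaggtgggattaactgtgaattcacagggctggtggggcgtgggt
Pou5f1: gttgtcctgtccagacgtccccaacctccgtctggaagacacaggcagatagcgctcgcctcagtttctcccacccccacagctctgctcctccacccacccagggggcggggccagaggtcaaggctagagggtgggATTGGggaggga
Col3a1: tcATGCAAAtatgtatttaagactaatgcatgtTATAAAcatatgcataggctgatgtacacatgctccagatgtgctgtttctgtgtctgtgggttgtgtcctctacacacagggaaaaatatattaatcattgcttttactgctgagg
Zyx: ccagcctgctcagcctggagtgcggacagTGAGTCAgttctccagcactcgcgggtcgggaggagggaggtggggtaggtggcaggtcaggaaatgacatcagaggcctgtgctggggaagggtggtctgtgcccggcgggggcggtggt
The Nanog window (chr6:122707339-122707488, plus strand) held ATGCAAA on the minus strand, read as TTTGCAT, starting 75 bases before the start. The Pou5f1 window (chr17:35505882-35506031, plus) held CCAAT on the minus strand at 12 bases before it. That of Col3a1 (chr1:45311388-45311537, plus) held both ATGCAAA, 148 bases before the start, and TATAAA, 117 before it. The Zyx window (chr6:42349678-42349827, plus) held TGAGTCA at 121 bases before the start. RefSeq lists 2 starts each for Nanog and Pou5f1, and the window before the second start of either gene held no match. The matches shown do not overlap each other. ATGCAAA was thus found in a gene of either direction. A match describes letters and is no evidence of binding, and no library here measured it.

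The reprogramming factors did not share a direction. Klf4 had 35.5 and 35.1 FPKM in MEF, 12 and 14.1 in ESC and 9.51 and 10.2 in iPSC, so both fibroblast values lay above all pluripotent values, with a log2 change of 1.60 ± 0.12 (1.23 with the length trend removed). Myc, which drives growth and ribosome production, had 124 and 127 FPKM in MEF, 2.98 and 2.45 in ESC and 2.69 and 2.11 in iPSC and a log2 change of 5.66 ± 0.14. MEF thus held more RNA of these 2 factors and pluripotent cells more of Pou5f1 and Sox2. Both lists of pluripotent substates were mixed. Of 20 naive and LIF-response genes, 4 rose and 12 fell (3 and 11 with the trend removed). Those that rose were Klf4, the related Klf5, and the LIF pathway genes Il6st (the receptor chain gp130, 58.8 ± 1.12 against 9.45 ± 2.16 FPKM) and Stat3 (34.6 ± 2.01 against 10.4 ± 2.34), where the values after ± are SDs over 2 MEF and 4 pluripotent libraries. Those that fell were led by Tcl1, a cofactor of AKT, and Prdm14, a repressor of differentiation and DNA methylation genes, both without a fragment in MEF. Of 14 formative and primed genes, 3 rose and 9 fell in each fit. Otx2, the forebrain and epiblast homeobox factor, had 0.0716 and 0 FPKM in MEF, 12.2 and 15.9 in ESC and 18.2 and 15.1 in iPSC, with 1 fragment in MEF in all. The neural intermediate filament Nes (nestin, 54.6 ± 0.410 against 4.28 ± 0.424 FPKM) was among those that rose.

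Regulators of chromatin did not share a direction, and neither did all genes tested, of which 33.3% rose and 32.9% fell. Among 19 genes that write, read or erase DNA methylation, 5 rose and 8 fell (6 and 7 with the trend removed). Dnmt3l, the cofactor of the de novo methyltransferases, had 1.48 and 1.13 FPKM in MEF, 265 and 195 in ESC and 236 and 247 in iPSC, and the methyltransferase Dnmt3b had a log2 change of -3.15 ± 0.19. The dioxygenases that oxidise methylcytosine split: Tet1 had 0.680 and 0.827 FPKM in MEF, 9.44 and 12.3 in ESC and 9.45 and 9.29 in iPSC, and Tet3 had 10.8 and 11.6 FPKM in MEF, 0.191 and 0.338 in ESC and 0.227 and 0.183 in iPSC. Each pair of MEF values stood clear of the pluripotent values, on opposite sides, with log2 changes of -3.48 ± 0.21 and 5.53 ± 0.17 (3.09 for Tet3 with the trend removed). Of 30 Polycomb subunits, 8 rose and 13 fell (6 and 13). Within the PRC1 complex, the chromobox protein Cbx7 had 0.528 and 0.633 FPKM in MEF, 45.0 and 51.9 in ESC and 47.5 and 50.5 in iPSC and fell by 6.30 ± 0.19 log2. The Polyhomeotic subunits split, Phc1 with -3.22 ± 0.14 and Phc2 with 3.59 ± 0.12. Of 23 subunits of the BAF remodelling complex, 8 rose and 2 fell (7 and 2), among them the DNA-binding subunit Arid1a (18.9 and 19.3 FPKM in MEF, 2.48 and 3.91 in ESC and 3.11 and 2.46 in iPSC; 2.61 ± 0.17, 0.55 with the trend removed) and, lower in MEF, Actl6a (-1.68 ± 0.15).

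Germline genes were likewise nearly absent from MEF. Of the 34 tested among 39, 32 fell and 1 rose, and 33 fell with the length trend removed. Tdrd12, a Tudor protein of the piRNA pathway, which silences transposons, had 0 and 0.0338 FPKM in MEF, 64.4 and 52.0 in ESC and 85.6 and 87.9 in iPSC. Mael, of the same pathway, had 0 and 0 FPKM in MEF, 14.3 and 12.8 in ESC and 18.4 and 17.0 in iPSC (at least 219-fold higher in pluripotent cells), and Hormad1, which sits on meiotic chromosome axes, at least 588-fold. Neither had a fragment in MEF. The levels were modest: the list took 0.0551% to 0.0613% of the summed FPKM in pluripotent libraries and 0.00446% and 0.00498% in MEF 1 and 2. The exception was Tdrd7, with 12.8 ± 0.141 against 3.46 ± 0.976 FPKM. Outside the lists, the largest changes overall included Ooep, a maternal-effect gene of the oocyte, with 0.0560 and 0 FPKM in MEF, 120.3 and 76.5 in ESC and 112 and 104 in iPSC. Of 29 Rhox homeobox genes, which form an X-linked reproductive cluster, 3 had enough fragments to test. The 29 summed to 0 FPKM in both MEF libraries, so a member could pass the filter only through pluripotent libraries. The direction of the 3 tested, which fell, was therefore set by the filter and is no separate result. Near-identical copies of Rhox genes make single values uncertain.

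Epithelial adhesion separated the cells almost as completely. Of 40 genes of epithelial junctions and keratins, 33 fell and 2 rose (median -4.75), or 35 and 2 with the trend removed. Cldn6, a tight-junction claudin, had 0.165 and 0 FPKM in MEF, 88.0 and 63.5 in ESC and 98.3 and 98.6 in iPSC. Cdh1 (E-cadherin), which glues epithelial cells together and was chosen after its values were seen, had 0.291 and 0.392 FPKM in MEF, 28.6 and 36.3 in ESC and 33.3 and 35.4 in iPSC and fell by 6.60 ± 0.24 log2. Cdh2 (N-cadherin), its mesenchymal counterpart, had 32.1 and 33.5 FPKM in MEF, 0.839 and 1.24 in ESC and 1.01 and 0.875 in iPSC and rose by 5.09 ± 0.17. Neither cadherin overlapped between the groups, and the order of the groups was opposite. The polarity gene Crb3 and the sorting adaptor Ap1m2 had no fragment in MEF (at least 425-fold and 577-fold higher in pluripotent cells). Those that rose were Tjp1 (ZO-1, 36.7 ± 1.38 against 6.67 ± 2.13 FPKM) and Jup (plakoglobin, 29.8 ± 1.32 against 10.3 ± 0.976), which also serve fibroblast junctions. Esrp1, the splicing factor of epithelial isoforms, had 0.0640 and 0 FPKM in MEF, 12.1 and 12.2 in ESC and 12.9 and 11.9 in iPSC, and Mbnl1, a splicing factor of differentiated cells, had 43.0 and 41.0 FPKM in MEF, 3.15 and 3.83 in ESC and 3.17 and 2.73 in iPSC. Of the let-7 axis, Lin28a, which blocks let-7 maturation, had 0 and 0.0147 FPKM in MEF, 39.4 and 42.0 in ESC and 44.6 and 49.6 in iPSC and Hmga2, a let-7 target, had 397 and 403 FPKM in MEF, 5.66 and 5.16 in ESC and 5.75 and 6.31 in iPSC. Pluripotent libraries were high in the first of each of these pairs and MEF in the second. The pairs do not stand for all such genes: of 32 listed for alternative splicing and oncofetal RNA binding, 13 rose and 6 fell (8 and 5 with the trend removed).

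Extracellular matrix genes were broadly higher in MEF. Of 40 collagens tested among 43, 33 rose and 1 fell, with a median log2 change of 4.99; with the length trend removed 33 rose and 3 fell (median 3.38). Col6a3, a chain of the microfibrillar collagen VI, had 275 and 278 FPKM in MEF, 3.64 and 2.56 in ESC and 2.80 and 3.15 in iPSC. Both MEF values were far above every pluripotent value, with a log2 change of 7.63 ± 0.15. Col14a1, a fibril-associated collagen, changed by 7.32 ± 0.21, and Col3a1, of fibrillar collagen III, by 6.09 ± 0.17. Among matrix glycoproteins and proteoglycans, 30 of 31 tested rose and 0 fell, in each fit (median 4.42 and 3.76). Fbn2, a fibrillin of embryonic microfibrils, had 22.9 and 23.4 FPKM in MEF, 0.0314 and 0.0677 in ESC and 0.0272 and 0.0397 in iPSC and a change of 9.09 ± 0.19, or 6.69 with the trend removed. Elastin (Eln), deposited on those microfibrils, had 102 and 106 FPKM in MEF, 0.0447 and 0.521 in ESC and 0.155 and 0.408 in iPSC and a change of 8.47 ± 0.28. Both genes were near 0 in each pluripotent library. Collagens took 0.994% and 0.972% of the summed FPKM in MEF 1 and 2 and 0.00668% to 0.00943% in pluripotent libraries, and matrix glycoproteins 1.86% and 1.85% and 0.0410% to 0.0560%.

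Enzymes that build and cut the matrix followed, with 31 of 36 rising and 0 falling (31 and 1 with the trend removed). Lox, the oxidase that crosslinks collagen and elastin, had 614 and 615 FPKM in MEF, 8.60 and 11.9 in ESC and 10.1 and 11 in iPSC and a change of 5.63 ± 0.16. Timp3, an inhibitor of metalloproteinases, changed by 6.11 ± 0.31. Among integrins, the receptors that bind matrix, 19 of 23 tested rose and 3 fell, with fewer rising once the trend was removed (13, and 3 falling). Itgb3, a chain of the vitronectin receptor, had 39.1 and 40.2 FPKM in MEF, 0.941 and 1.02 in ESC and 0.799 and 1.08 in iPSC, and the collagen receptor chain Itga2 had 9.72 ± 0.124 against 0.0803 ± 0.0720. Itgb7 and Itgb4 fell (-2.96 ± 0.29 and -1.88 ± 0.21). Itgam and Itgb2, among those that rose, are leukocyte chains and are taken up with the macrophage genes.

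The contractile apparatus was higher in MEF but not in all its parts. Of 33 genes tested, 23 rose and 2 fell (median 2.02), and 26 rose and 1 fell with the trend removed. Flnc, an actin crosslinker, had 123 and 127 FPKM in MEF, 1.46 and 1.88 in ESC and 1.37 and 1.49 in iPSC and a change of 6.32 ± 0.15. Zyx (zyxin), at focal adhesions and stress fibres, had 296 and 299.6 FPKM in MEF, 8.22 and 6.22 in ESC and 8.06 and 8.09 in iPSC and a change of 5.26 ± 0.14. Tagln (SM22), often used as a smooth muscle and myofibroblast marker, was not called: it had 774 and 773 FPKM in MEF, 730.0 and 527 in ESC and 687 and 585 in iPSC. Both MEF values were the highest, by little. Myl6, a light chain of non-muscle myosin, fell in the first fit (-1.70 ± 0.20) and was higher in MEF with the length trend removed (0.89). Of 8 caveolar genes tested, 7 rose in each fit, with Cav1, the coat protein of caveolae, at 610.3 ± 2.29 against 40.0 ± 5.22 FPKM. Of 17 YAP target genes, the readout of tension and spread shape, 15 rose and 1 fell (12 and 1). Ctgf, the best known of them, had 1200.4 and 1248 FPKM in MEF, 29.6 and 30.3 in ESC and 35.5 and 36.3 in iPSC, with the MEF values above all others.

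Surface and cytoplasmic proteins used to mark fibroblasts were less uniform. Of 28, 13 rose and 3 fell (median 0.59). With the trend removed, 20 rose and 2 fell (median 2.37). Cd44, the hyaluronan receptor, had 483 and 490.1 FPKM in MEF, 12.8 and 13.9 in ESC and 15.7 and 13.8 in iPSC and Cdh11, a mesenchymal cadherin, 138 ± 0.174 against 5.02 ± 1.33. Lgals1 (galectin 1), a small lectin, had 1425 and 1446 FPKM in MEF, 1840.3 and 1056 in ESC and 1540.3 and 1376 in iPSC and was not called, with a change of -0.03 ± 0.19 that became 2.26 with the trend removed. The calcium-binding S100a6 and S100a11 did likewise (-0.06 ± 0.20 and 0.09 ± 0.18, then 2.41 and 3.13). For these short transcripts the 2 fits give different answers. Dpp4, a surface peptidase of some fibroblast lineages, fell in both (-3.63 ± 0.23 and -5.17).

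**Figure D3:**
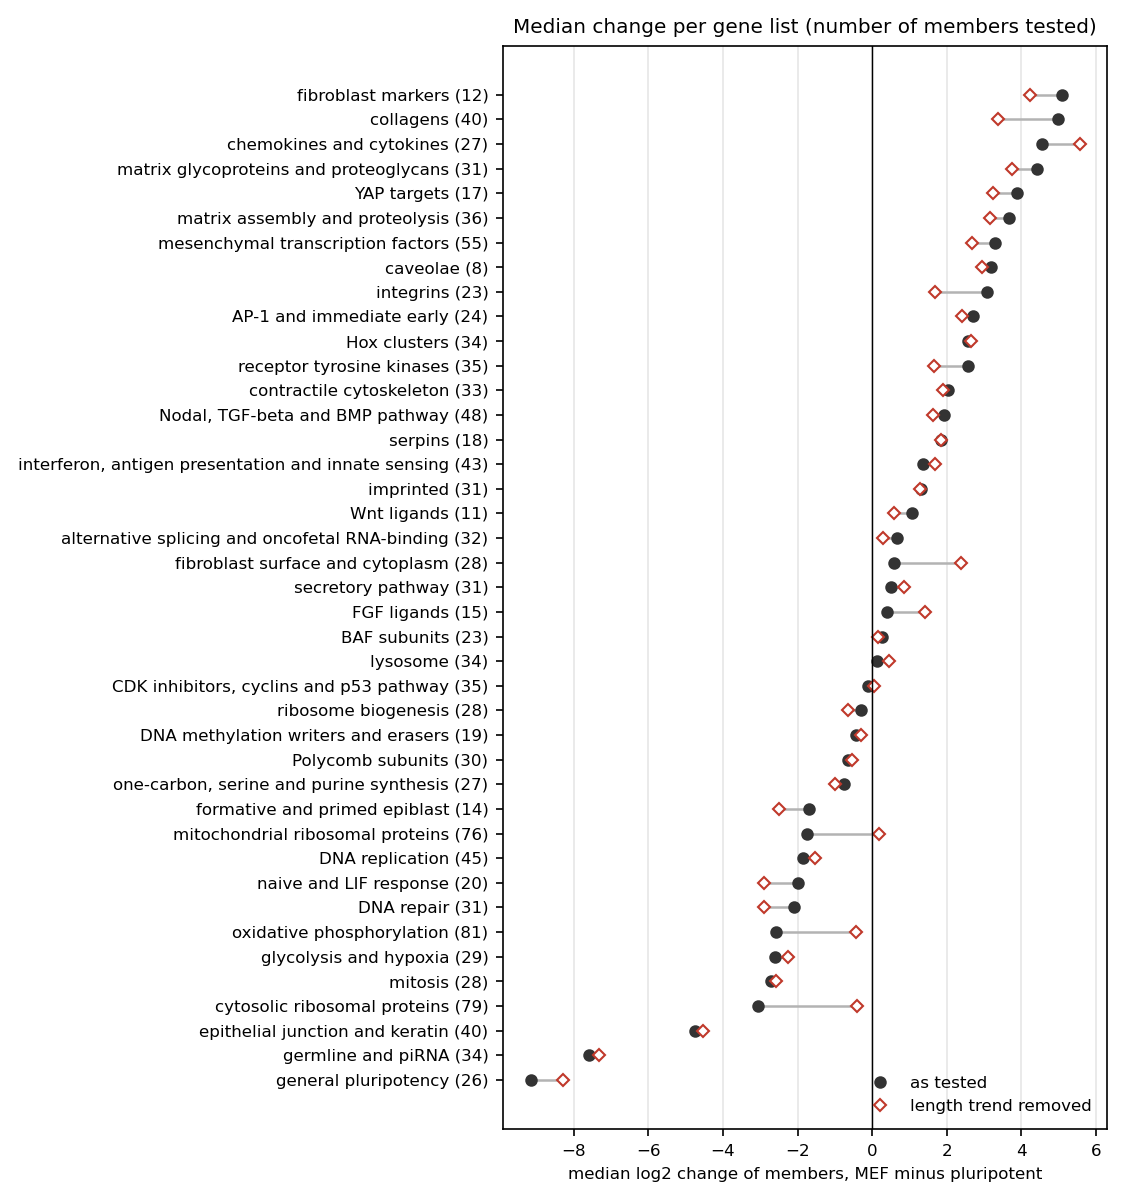
Median log2 change (MEF minus pluripotent) of the members tested in each list of 8 or more, other than markers of other cell types, as tested (filled) and with the length trend removed (open). Among the lists plotted, general pluripotency and germline lists lie farthest left and fibroblast markers, collagens, chemokines and matrix glycoproteins farthest right in both fits, while ribosomal protein and oxidative phosphorylation lists move from -3.06 and -2.59 to -0.41 and -0.45.

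Transcription factors of mesenchyme were high in MEF. Of 55 tested among 58, 49 rose and 3 fell (45 and 3 with the trend removed). Foxc2, a forkhead factor of mesoderm and vessels, had 18.0 and 17.3 FPKM in MEF, 0.169 and 0.164 in ESC and 0.110 and 0.194 in iPSC and a change of 6.68 ± 0.19. Runx1, known for blood and mesenchyme, had 15.4 and 16.7 FPKM in MEF, 0.633 and 0.623 in ESC and 0.726 and 0.595 in iPSC, and Tead1, the DNA-binding partner of YAP, 75.3 and 76.6 FPKM in MEF, 2.69 and 4.02 in ESC and 2.84 and 2.54 in iPSC. In all 3 the MEF values were several times every pluripotent value. The files hold a second row named Tead1, with 29.9 and 27.7 FPKM in MEF, 7.83 and 5.82 in ESC and 6.31 and 6.29 in iPSC, so its level is uncertain where fragments were divided between the rows. Nfix, a nuclear factor I protein, changed by 5.56 ± 0.14. Those that fell included Gata4 and Scx, with MEF levels of 0.186 and 2.42 FPKM (Scx was not called with the trend removed). Hox genes, which record position along the body axis, rose in 29 of 34 tested and fell in 1 (28 and 1). They did so at low levels: Hoxc10 had 2.98 and 3.36 FPKM in MEF, 0.248 and 0.241 in ESC and 0.161 and 0.354 in iPSC and Hoxa13 1.48 and 1.23 FPKM in MEF, 0.0971 and 0.0629 in ESC and 0.162 and 0.0651 in iPSC. Of 24 AP-1 and immediate early genes, 19 rose and 0 fell (19 and 1). Fosl1, an AP-1 subunit, had 24.5 and 24.8 FPKM in MEF, 0.280 and 0 in ESC and 0.547 and 0.401 in iPSC and the zinc finger gene Egr2 13.4 ± 1.13 against 0.164 ± 0.106. Jund, another AP-1 subunit, was not called, with 24.3 ± 2.11 against 24.8 ± 3.86 FPKM, and neither was Ier2; both were called higher in MEF with the trend removed (0.46 and 0.81).

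Each list of signalling genes held members of both directions, with more rising than falling in both fits. Of 48 genes of the Nodal, TGF-beta and BMP pathway, 34 rose and 8 fell (30 and 9 with the trend removed). Among ligands, Nodal had 0 and 0 FPKM in MEF, 18.0 and 15.0 in ESC and 19.9 and 23.5 in iPSC and its antagonist Lefty2 0 and 0 FPKM in MEF, 17.2 and 16.8 in ESC and 18.1 and 19 in iPSC, so MEF had no fragment of either (at least 389-fold and 398-fold higher in pluripotent cells). Inhba, the activin A subunit, had 536 and 542 FPKM in MEF, 7.53 and 8.33 in ESC and 9.0 and 6.54 in iPSC and a change of 6.08 ± 0.16, and Fst (follistatin), which traps activin, had 175 and 181 FPKM in MEF, 2.34 and 1.98 in ESC and 2.46 and 2.78 in iPSC and 6.13 ± 0.14. The ligand-antagonist pair of one cell kind was thus low in the other. The receptors Bmpr2 and Bmpr1b rose (6.02 ± 0.19 and 5.62 ± 0.20). Of 15 FGF ligands tested among 22, 7 rose and 6 fell (7 and 5). Fgf4, the autocrine ligand of pluripotent cells, had 0 and 0 FPKM in MEF, 88.6 and 87.0 in ESC and 93.0 and 97.7 in iPSC (at least 2632-fold higher there), while Fgf2 had 27.1 and 27.8 FPKM in MEF, 0.184 and 1.59 in ESC and 0.160 and 0.213 in iPSC and Fgf7 40.8 and 38.2 FPKM in MEF, 1.68 and 2.53 in ESC and 3.05 and 2.36 in iPSC. ESC 4 stood above the other pluripotent libraries for Fgf2 but far below MEF.

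Of 11 Wnt ligands tested, 6 rose and 3 fell (5 and 3), led by Wnt5a, the ligand of non-canonical signalling, with 26.3 and 25.8 FPKM in MEF, 0.620 and 1.12 in ESC and 0.920 and 1.26 in iPSC. Receptor tyrosine kinases rose in 29 of 35 tested and fell in 4 (21 and 4 with the trend removed; their transcripts are long, with a median implied length of 4.87 kb). Pdgfrb, the receptor for PDGF-BB on mesenchymal cells, had 29.8 and 28.3 FPKM in MEF, 0.474 and 0.560 in ESC and 0.411 and 0.532 in iPSC. Flt1 and Kdr, receptors for VEGF, had 88.7 ± 3.74 against 1.38 ± 0.526 and 5.19 ± 0.0870 against 0.0248 ± 0.0215 FPKM. Kit, the stem cell factor receptor, fell, with 1.35 and 0.506 FPKM in MEF, 4.80 and 7.84 in ESC and 4.69 and 4.50 in iPSC, and MEF values were below every pluripotent value.

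**Figure D4:**
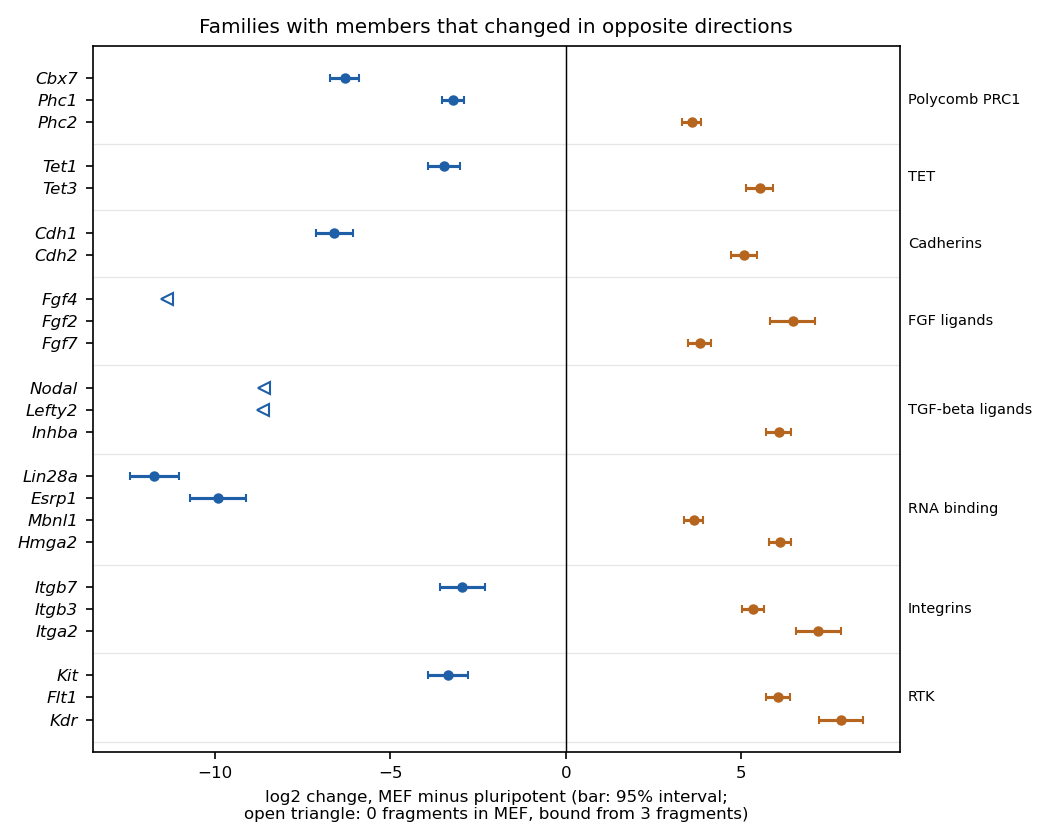
Log2 change (MEF minus pluripotent) of 23 genes of 8 families, with 95% intervals; open triangles are bounds for Fgf4, Nodal and Lefty2, which had 0 fragments in MEF. Each family was picked after its values were seen, for holding members that changed in opposite directions. The group marked RNA binding takes in Hmga2, named in the text as a let-7 target and not as an RNA-binding protein.

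Chemokines and cytokines were a MEF program: 23 of 27 tested among 42 rose and 1 fell (25 and 0). Il1rl1 (ST2), the IL-33 receptor, had 876 and 874 FPKM in MEF, 3.43 and 6.09 in ESC and 4.58 and 4.28 in iPSC. The list summed to 1925 and 1924 FPKM in MEF 1 and 2, so this receptor alone made much of it. The chemokines Cxcl5, which attracts neutrophils, and Ccl9 had 32.5 ± 1.73 against 0.486 ± 0.0253 and 31.0 ± 1.04 against 0.114 ± 0.0831 FPKM. Interferon and innate sensing genes were mixed, with 24 of 43 rising and 9 falling (26 and 4). The RNA sensor Ifih1 (MDA5) had 7.39 ± 0.271 against 0.379 ± 0.183 FPKM and the LPS receptor Tlr4 6.84 ± 0.276 against 0.201 ± 0.0450. Ifitm1, an interferon-induced membrane protein also known from early germ cells, went the other way with 3.64 and 2.38 FPKM in MEF, 968 and 592 in ESC and 747 and 689 in iPSC.

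Macrophage markers rose with these groups. Of 15, 14 rose, by a median of 5.59 log2, and 15 with the trend removed. C1qa, a complement subunit made by macrophages, had 56.9 and 56.1 FPKM in MEF, 0.371 and 0.322 in ESC and 0.644 and 0.853 in iPSC. Csf1r, the receptor that macrophages need to survive, had 31.3 and 29.2 FPKM in MEF, 0.554 and 0.652 in ESC and 0.227 and 0.188 in iPSC, and Ptprc (CD45), of all leukocytes, 5.56 and 5.39 FPKM in MEF, 0 and 0.0315 in ESC and 0.0632 and 0.0369 in iPSC. In each case both MEF values were alike and above every pluripotent value. The list took 0.166% and 0.165% of the summed FPKM in MEF 1 and 2 and 0.00642% to 0.00719% in pluripotent libraries. Among the largest rises of all genes were others of myeloid cells, namely C5ar1, Fcrls, Hcls1 and Igsf6. C5ar1, the receptor for complement C5a, had 10.0 and 9.92 FPKM in MEF, 0 and 0 in ESC and 0 and 0.0177 in iPSC. Its count ratio was 1188 (95% counting interval 213 to 46992). None of the 15 markers was at 0 in MEF. The part of other cells in the chemokine, interferon, leukocyte integrin, Runx1 and receptor results was not tested. In bulk RNA, more cells of a type and more RNA per cell cannot be told apart. Endothelial genes were split (Kdr, Flt1, Cdh5 and Erg among 5 that rose; 3 of 9 fell), and Sox9, the chondrocyte factor, rose with 10.7 and 12.6 FPKM in MEF, 0.0544 and 0.0352 in ESC and 0.118 and 0.188 in iPSC.

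Proliferation genes fell together. Of 28 genes of mitosis, 25 fell in each fit and 0 rose (medians -2.72 and -2.58), and of 45 of DNA replication 39 fell and 0 rose (37 and 1). Ccnb2, a mitotic cyclin, had 10.2 and 8.01 FPKM in MEF, 180.0 and 158 in ESC and 197 and 190.1 in iPSC. Gmnn (geminin), which stops origins from firing again, had 9.56 and 11.3 FPKM in MEF, 266 and 193 in ESC and 259 and 252 in iPSC, with a change of -4.60 ± 0.19 and -2.61. The gap between groups was wide against the spread within either. DNA repair genes fell in 23 of 31 and rose in 1 (27 and 0), with Fanci and Chek2, of crosslink repair and the checkpoint, at -4.17 ± 0.19 and -3.73 ± 0.19. Genes that regulate the cycle had no common direction: 9 of 35 rose and 11 fell (9 and 9). Ccnd2, a D cyclin that answers growth factors, had 96.5 and 94.4 FPKM in MEF, 3.61 and 5.73 in ESC and 5.92 and 4.64 in iPSC. Cdkn2a, the locus of the inhibitors p16 and p19ARF, was lower in MEF with 6.18 and 7.46 FPKM in MEF, 55.3 and 45.0 in ESC and 57.9 and 57.2 in iPSC, a change of -2.94 ± 0.17 that was -0.83 with the trend removed. Gene totals do not tell its transcripts apart.

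Glycolytic genes were lower in MEF in each fit, and respiratory chain genes mainly in the first. Of 29 genes of glycolysis and hypoxia, 24 fell and 3 rose (23 and 1 with the trend removed; medians -2.61 and -2.27). Ldhb, a lactate dehydrogenase subunit, had 11.1 and 11.5 FPKM in MEF, 1580.5 and 1086 in ESC and 1281 and 1308 in iPSC. Slc2a3 (GLUT3), a high-affinity glucose transporter, had 7.15 and 7.49 FPKM in MEF, 357 and 413 in ESC and 322 and 299 in iPSC. Both genes were far higher in every pluripotent library than in either MEF library. Vegfa and Hif1a rose (2.50 ± 0.13 and 1.94 ± 0.15), though Slc2a3 and Bnip3 (-5.25 ± 0.18), classed with them as hypoxia genes, fell. With the trend removed only 1 gene of the list rose, so Vegfa and Hif1a did not both do so there. Oxidative phosphorylation genes fell in 78 of 81 tested, with a median of -2.59, but in 17 (median -0.45) with the trend removed. Cox7a1, a tissue-restricted subunit of cytochrome oxidase, and Ndufa4l2, a hypoxia-induced paralog of a respiratory chain subunit, fell in both (-8.04 ± 0.45 and -7.94 ± 0.36, then -4.56 and -6.00). Of 27 genes of one-carbon, serine and purine synthesis, 2 rose and 13 fell (3 and 13). Tdh, the threonine dehydrogenase that feeds mouse pluripotent cells, has 2 rows in the files, between which fragments may be divided, so neither level is certain. The row named Tdh had 0 and 0 FPKM in MEF, 2.64 and 5.13 in ESC and 4.73 and 4.49 in iPSC (at least 65.4-fold higher in pluripotent cells). The row named Tdh.1 had the higher level, 0 and 0 FPKM in MEF, 88.9 and 63.5 in ESC and 78.1 and 72.0 in iPSC (at least 1020-fold). Gldc, of the glycine cleavage system, had 0.682 and 0.764 FPKM in MEF, 11.6 and 14.3 in ESC and 14.5 and 17.8 in iPSC.

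The genes of translation depended strongly on the fit. All 79 cytosolic ribosomal protein genes fell (median -3.06); with the length trend removed 11 fell and 0 rose (median -0.41). Rps23 had 1298 and 1298 FPKM in MEF, 18937 and 10446 in ESC and 15341 and 14130 in iPSC, and its change of -3.49 ± 0.26 became -0.41. These genes took 14.5% and 14.4% of the summed FPKM in MEF 1 and 2 and 40.5% to 47.4% in the others. Pseudogene copies make single ribosomal values uncertain, and ESC 3 and 4, of 1 group, differed in them. Mitochondrial ribosomal protein genes fell in 55 of 76 (median -1.74), against 8 with 13 rising once the trend was removed (median 0.17). Of 28 ribosome biogenesis genes, 6 rose and 10 fell (4 and 9). Secretory pathway genes, which carry collagen out of the cell, were mostly within 2-fold: 10 of 31 rose and 1 fell (13 and 0 with the trend removed). Sec24d, a coat protein for procollagen export, had 43.7 and 44.3 FPKM in MEF, 1.73 and 3.33 in ESC and 2.51 and 2.42 in iPSC, and Creb3l2, a factor that raises secretory capacity, 17.3 ± 0.313 against 0.824 ± 0.219. Lysosomal genes rose in 10 of 34 and fell in 3 (10 and 4), the largest rise being Ctss (61.2 ± 5.40 against 1.29 ± 0.188 FPKM), a protease of myeloid cells.

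**Figure D5:**
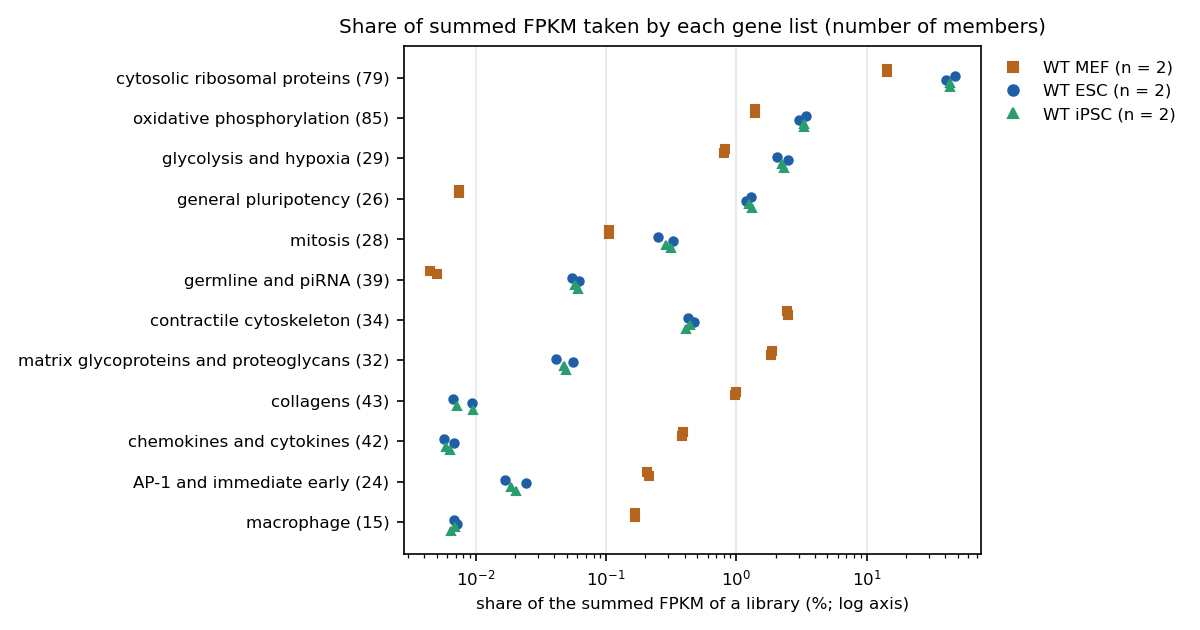
Share of each library's summed FPKM (%, log axis) taken by 12 lists, with the number of members; squares are MEF, circles ESC and triangles iPSC. MEF 1 and 2 lie on top of each other in each row, and general pluripotency, collagens and chemokines are farthest from the pluripotent libraries. Much of the chemokine and cytokine share in MEF came from the receptor Il1rl1.

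Imprinted genes, expressed from 1 parental copy, rose in 19 of 31 tested and fell in 9 (16 and 10 with the trend removed). Plagl1, a zinc finger growth regulator, had 39.9 and 40.0 FPKM in MEF, 0.763 and 1.86 in ESC and 0.404 and 0.580 in iPSC, and Igf2r, the receptor that clears IGF2, 54.8 ± 0.962 against 3.56 ± 0.828. Snrpn, of the Prader-Willi region, went the other way with 3.68 and 4.39 FPKM in MEF, 124 and 106 in ESC and 118 and 109 in iPSC, and so did Phlda2, a placental growth brake, with -5.61 ± 0.26. For Plagl1, Igf2r and Snrpn the MEF values lay outside the pluripotent range. Gene totals do not give the parental allele. Sex-linked genes also differed: Xist, the RNA of the inactive X, had 39.5 and 39.9 FPKM in MEF, 12.5 and 6.33 in ESC and 10.8 and 7.29 in iPSC (log2 4.32 ± 0.18 from fragments, larger than its FPKM ratio), and the Y-linked Ddx3y had 21.5 and 21.6 FPKM in MEF, 0.820 and 1.31 in ESC and 2.72 and 2.84 in iPSC. MEF was higher for both, and the labels give no sex.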

How the data were processed

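Of the 17 samples of the series, 6 were analysed here. Their RNA was extracted with Trizol (integrity number above 7.5, per the labels' protocols), and about 250 ng was used per TruSeq library. Per the submitters' processing notes, the tools were Cuffdiff 2.1.1 and TopHat2 2.0.7, with Bowtie2 2.0.5 and CASAVA, and the builds mm10 and NCBIM37, with no role for either, so no coordinates of the authors' genes are given. Strand handling is not given in the sources used here. Per the file headers, each deposited table holds the authors' estimated counts of fragments for 28670 genes (98.2% to 98.8% of values whole), a scaled count, FPKM and a status. Tests left out 7 genes whose status was not OK in some library, Flna and Eef1a1 among them.

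Estimated counts were rounded and tested in edgeR 4.0.16 (R 4.3.3; TMM, filterByExpr with a minimum count of 10, quasi-likelihood test, a term each for MEF, ESC and iPSC, Benjamini-Hochberg adjustment over 14828 genes). The contrast was MEF minus the mean of ESC and iPSC. Deposited FPKM gave levels and shares; its scaling is the authors'. A group at 0 was set to a floor of 3 fragments over the group. Intervals and floors cover counting error only. Transcript length was implied from scaled count and FPKM (within 25% of the annotated length for 88.9% of 1302 genes with 1 transcript), and the trend was removed by a loess curve (span 0.3) per library. Fold changes come from counts and can differ from ratios of FPKM where isoforms of unlike length are used.

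The samples were compared by label, and the members and gene lists were chosen with earlier results of these data known. Of 1554 list members, 1550 were found. Genes were named by rule: the reprogramming factors, the 12 largest changes a direction, genes at 0 in a group, the 10 highest levels a group and the largest changes and uncalled members of each list. Cdh1 and Rif1 fall outside it, and a few genes within it are not reported here. Alternatives covered DESeq2 1.42.0, limma 3.58.1 with a pseudocount of 1 or 0.1, other scalings and filters, 2 group terms, a test against 2-fold and each library left out. A planned comparison of promoter motifs by direction was void, since promoters were found for 76.8% of tested genes, under the 80% needed. The test was checked on simulated counts of 14174 genes, where it called 14 unchanged genes.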

Additional observations from a re-analysis of the deposited data

Results flagged for a closer look

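In 3 genes the MEF contrast differed between ESC and iPSC by the test of that difference itself (edgeR, adjusted over 14828 genes, 2 libraries in each group). Eif2s3y, a Y-linked translation initiation factor, had 18.3 and 18.9 FPKM in MEF, 2.06 and 2.63 in ESC and 15.9 and 14.3 in iPSC, an iPSC minus ESC log2 difference of 3.05 ± 0.19 (adjusted p = 5.8e-05). Both ESC libraries lay below all the others. Mid1, a ubiquitin ligase gene that crosses the pseudoautosomal boundary in mice, had 12.3 and 13.8 FPKM in MEF, 7.49 and 8.50 in ESC and 25.7 and 23.3 in iPSC (log2 1.85 ± 0.16, adjusted p = 0.00084). Gm9781, an unnamed gene model, had 0.850 and 1.02 FPKM in MEF, 9.52 and 5.25 in ESC and 0.635 and 0.893 in iPSC (log2 -3.24 ± 0.31, adjusted p = 0.0015). For Eif2s3y and Gm9781 the iPSC values lay near those of MEF, and for Mid1 above them. Which line or embryo each library came from is not in the labels.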

How the results depend on the processing

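The counts against MEF held within 1.5 times under most alternatives: genes called against pluripotent cells ranged from 8693 (test against a 2-fold change) to 13949 (no filter on low counts), with 12278 by DESeq2 and 11556 by limma on log2(FPKM + 1). Leaving out each library gave 11559 to 13703 calls, with 4722 to 5119 genes rising and 4967 to 5417 falling, 11080 to 12948 calls against ESC and 11340 to 13771 against iPSC. A mean of at least 100 fragments, which tests fewer genes, left 3235 rising and 3131 falling. Under library size alone, 5854 rose and 4028 fell, and the median of all genes moved by 0.40 log2. The count between iPSC and ESC did not hold: it was 14 by DESeq2, 1 by limma, 121 without a filter, and 35 or 38 with the length trend removed (the latter fitted without ribosomal protein genes). Leaving out a library gave 2 to 3461: 3461 without ESC 3, 342 without ESC 4 and 5 without iPSC 2. The lone library of a group is assumed there to vary like the others. The cause was not tested.

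Of 147 genes named here, 136 kept their sign and call under every alternative other than the length adjustment. With the length trend removed, log2 changes reversed for Lgals1 (2.26), S100a6 (2.41), Myl6 (0.89), Ier2 (0.81), Jund (0.46) and Scx (0.43, not called), and with its trend fitted without ribosomal protein genes they were 2.23, 2.38, 0.87, 0.81, 0.46 and 0.41. Under library size alone, Jund (0.41), Lgals1 (0.40) and S100a6 (0.37) were called higher in MEF. S100a11, not called with all libraries, was called lower (-0.22) without ESC 4 and higher (0.30) without ESC 3. The length adjustment was chosen after seeing the data, and so were fits of MEF with ESC only (11455 calls) and with iPSC only (13400). No paired analysis was possible because the groups share no 2 replicate numbers. Small changes were called less often in counts simulated at these libraries' depths and number. There, 44.8% of 67 genes changed 1.5-fold were recovered and 100% of 67 changed 2-fold. The changed genes were few among 14174, each had a mean of at least 100 fragments, and no length trend was simulated. In the real data 86.0% of genes were called, so these rates need not hold for them or for genes with fewer fragments.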

Other observations

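Markers of cell kinds that neither group was labelled as were present in both directions. Of 9 skeletal muscle genes tested, 2 rose and 4 fell, led by Mylpf, a myosin light chain of fast muscle, with 4.77 and 2.39 FPKM in MEF, 1112 and 751 in ESC and 764 and 665 in iPSC. The muscle regulator Myog, in contrast, had 0.589 and 0.637 FPKM in MEF, 0.576 and 0.107 in ESC and 0.143 and 0.251 in iPSC and was not called. Of 11 neural genes, 6 rose and 5 fell. Stmn2, a microtubule regulator of neurons, had 6.73 and 7.51 FPKM in MEF, 348 and 265 in ESC and 320.2 and 290.2 in iPSC, and Tubb3, a tubulin often used as a neuronal marker, was higher in MEF with 40.9 and 43.5 FPKM in MEF, 7.55 and 6.75 in ESC and 6.88 and 6.82 in iPSC. Neither gene overlapped between the groups.

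All 5 adipocyte genes tested rose, among them Cd36, a fatty acid transporter also found on macrophages, with 34.1 and 34.2 FPKM in MEF, 0.334 and 0.692 in ESC and 0.492 and 0.340 in iPSC, and Pparg, the adipogenic receptor, with 3.71 ± 0.224 against 0.523 ± 0.131 (mean ± SD, n = 2 and 4). Of 7 cartilage and bone genes 5 rose and 2 fell: Col2a1, the collagen of cartilage, had 39.5 and 40.2 FPKM in MEF, 0.690 and 0.595 in ESC and 0.741 and 0.751 in iPSC. Alpl, an alkaline phosphatase that marks both bone and pluripotent cells, had 0.780 and 0.515 FPKM in MEF, 59.1 and 51.7 in ESC and 53.3 and 58.5 in iPSC. Of 5 trophoblast genes tested among 10, 4 fell and 1 rose. Tfap2c, a factor of trophoblast and germ cells, had 0 and 0 FPKM in MEF, 15.7 and 14.7 in ESC and 13.0 and 15.0 in iPSC, at least 376-fold higher in pluripotent cells. Of 13 primitive endoderm genes, 3 rose and 8 fell, Gata6 with 3.89 ± 0.128 against 0.647 ± 0.107 FPKM and the lipoprotein gene Apoa1 at 0 in MEF.

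Serpins, a family of protease inhibitors, divided: 10 of 18 tested among 60 rose and 6 fell (10 and 5 with the length trend removed). Serpinb2 had 73.2 and 75.4 FPKM in MEF, 0.718 and 0.612 in ESC and 0.789 and 1.34 in iPSC, and Serpinb6c had 0 and 0 FPKM in MEF, 7.64 and 7.01 in ESC and 8.88 and 8.26 in iPSC. The family lies in clusters of similar genes, so single values are uncertain. Of 10 genes of the 2-cell stage, a transient state of rare cells in pluripotent cultures, 1 had enough fragments to test, and of 6 erythroid genes 1, the globin Hbb-b1, with 0 and 0 FPKM in MEF, 0 and 5.89 in ESC and 0.486 and 1.73 in iPSC. Of the 51 fragments of Hbb-b1, ESC 4 and iPSC 3 gave 24 each.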
